A study of Homo sapiens with 6 samples.

Results

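The 10 genes described here encode negative-feedback regulators and transcriptional read-outs of the RAS to ERK pathway: the dual-specificity phosphatases DUSP1, DUSP4, DUSP5 and DUSP6, the Sprouty proteins SPRY2 and SPRY4, their relatives SPRED1 and SPRED2, and the ETS transcription factors ETV4 and ETV5. They were taken by gene symbol from a table of 58735 genes, all 10 were found, and all 10 passed the low-count filter, as did 16322 genes in all. The study sequenced messenger RNA from the established human glioblastoma cell line LN229 in 2 groups of 3 libraries. The HSD52_OE group overexpressed the long non-coding RNA gene HSD52, and the control group has the genotype label WT. The labels used here do not say whether control cells carried an empty vector, whether the overexpressing cells were a clone or a pool, or whether replicates came from separate cultures, so the p-values reflect library-to-library spread that could be technical in origin.

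When growth factor receptors activate RAS, the kinases RAF, MEK and ERK are switched on in turn, and ERK then drives transcription of its own inhibitors. The DUSP proteins remove phosphate from ERK and its relatives JNK and p38, Sprouty and SPRED proteins act further upstream on RAS and RAF, and ETV4 and ETV5 carry the signal on to target genes. Because their messenger RNAs are short-lived and follow ERK activity, several of these genes are used together as a transcript read-out of the pathway, which is often active in glioblastoma.

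HSD52, the overexpressed gene, had 1252, 1336 and 1327 counts in HSD52_OE libraries, against 11, 7 and 12 in control libraries. Library totals were 17777157 to 18917790 counts in HSD52_OE and 18250494 to 18574853 in control, so that 1 CPM was 17.1 to 19.7 counts. Genes with a count numbered 26558 ± 198 per HSD52_OE library, against 23165 ± 350 per control library (SD, n = 3 each; exact 2-sided permutation p = 0.1, the smallest that 3 against 3 allows). HSD52_OE libraries differed less from each other (chi-square per degree of freedom 2.23 to 3.51) than control libraries did (15.1 to 18.6). Of 10 glioma and neural lineage markers 9 were above 1 CPM in some library, with the list sum at 2970 to 3035 CPM in HSD52_OE and 3017 to 3371 CPM in control. Of the 9 markers tested in this list 3 were called higher and 3 lower, changes that the sum does not show. GFAP was low, at 6.04 to 8.06 CPM in HSD52_OE and 3.15 to 5.83 CPM in control, and AQP4 did not exceed 0.108 CPM. Immune and endothelial markers summed to at most 4.16 and 1.78 CPM in HSD52_OE and 2.16 and 2.33 CPM in control libraries, and epithelial markers to at most 10.5 CPM in HSD52_OE and 14.8 CPM in control libraries, with AIF1, CD3E, CDH1 and KRT5 at 0 counts throughout. All 5 fibroblast markers were lower, summing to 27.8 to 29.4 CPM in HSD52_OE and 87.4 to 170 CPM in control libraries, and of 4 nuclear-retained RNAs 3 were higher and MEG3 was at 0, summing to 620 to 850 CPM in HSD52_OE and 160 to 192 CPM in control libraries. Neuron and red cell markers summed to 24.7 to 26.4 CPM in HSD52_OE and 28.5 to 33.9 CPM in control libraries. Of the 3 tested in that list, SNAP25 was lower and HBB higher. HBB had 29, 33 and 27 counts in HSD52_OE libraries and 0 in every control library. The part of these shifts in the values of the feedback genes was not tested.

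The pattern among the 10 genes was uneven. DUSP1 rose 3.41-fold in HSD52_OE cells, SPRY2 and SPRED2 were called lower by small margins, and the remaining 7 genes did not pass the test. Of the 10 genes 3 were called, against 50.6% of all genes tested. DUSP1 was the single gene of the 10 past a fold of 2, a mark that 14.0% of all genes tested passed in either direction together with an adjusted p under 0.05. All 10 are protein-coding. Of 13155 protein-coding genes tested 21.4% were called higher and 30.1% lower, with 767 higher and 493 lower genes past a fold of 2. In 4 of the 10 genes the groups did not overlap (DUSP1, DUSP6, SPRY2 and SPRED2), against 58.9% of all genes tested.

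Promoter sequence is shown for DUSP1, the gene that rose, and for DUSP6, an ERK phosphatase gene that did not pass the test. Both are the 250 bases before the RefSeq start (GRCh38.p14), read 5′ to 3′ on the gene's own minus strand. DUSP1 is at chr5:172771196-172771445 and DUSP6 at chr12:89352502-89352751. Capitals mark the cyclic AMP response element TGACGTCA, which CREB and ATF factors bind, and its 7-base core TGACGTC, searched on both strands.
DUSP1: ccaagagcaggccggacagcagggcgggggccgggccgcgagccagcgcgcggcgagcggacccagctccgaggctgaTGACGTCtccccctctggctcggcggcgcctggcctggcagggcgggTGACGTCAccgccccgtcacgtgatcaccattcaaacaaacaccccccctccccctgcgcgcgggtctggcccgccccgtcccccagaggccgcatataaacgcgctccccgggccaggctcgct
DUSP6: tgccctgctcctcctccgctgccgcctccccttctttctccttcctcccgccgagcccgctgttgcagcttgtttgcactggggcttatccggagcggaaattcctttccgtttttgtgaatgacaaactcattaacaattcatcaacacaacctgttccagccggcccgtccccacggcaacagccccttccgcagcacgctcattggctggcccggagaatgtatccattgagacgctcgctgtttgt

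The DUSP1 window held 1 full element, at -125 to -118 from the start, and a further core at -172 to -166. Over 35116 RefSeq promoter windows of the same length, 1.65% held the full element and 3.12% the core, which overlaps it. Windows were scanned for 6 of the 10 genes (DUSP1, DUSP6, SPRY2, SPRY4, SPRED1 and SPRED2, with 9 start sites among them), and the DUSP1 window was the one of these 9 that held either. DUSP1 also held TATAAA on its own strand at -30 to -25, a motif found in 6.80% of all windows and at 1 of the start sites of SPRED2. The octamers TGAATGAA (1.40% of windows) and TGAATGGA (0.832%), bound by the repressor Capicua, the ETS motif CCGGAAGT (3.42%), the AP-1 motif TGANTCA (6.57%) and the CArG box (1.16%) were searched on both strands and matched none of the 9 windows. Other forms of the Capicua octamer were not searched and could be present in these windows. The DUSP6 window printed above does hold such a form, read on the opposite strand. It differs from TGAATGGA only by a C after the opening T. The share of all windows with that form was not counted. A match or its absence describes letters in these windows and no binding was measured.

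DUSP1 encodes a nuclear phosphatase of p38, JNK and ERK and is transcribed within minutes of growth factor or stress signals. Its level was 87.1, 82.8 and 49.5 CPM in HSD52_OE replicates 1 to 3, against 21.7, 22.1 and 20.6 CPM in control replicates 1 to 3, where CPM is the gene's count relative to the TMM-scaled library total. The groups did not overlap, and HSD52_OE replicate 3 lay well below the other HSD52_OE libraries while the control libraries were close together. Raw counts were 1619, 1591 and 974 in HSD52_OE against 371, 388 and 371 in control. The log2 fold change was 1.77 ± 0.19 (SE; 95% interval 1.34 to 2.20; adjusted p = 4.84e-05 by edgeR's quasi-likelihood test with the Benjamini-Hochberg method), and 95.2% of all genes tested had a smaller change in either direction. Without HSD52_OE replicate 3 the log2 fold change was 1.98, and over all alternatives it ran from 1.62 to 1.98 with an adjusted p of at most 0.00655. RNA from whole cultures does not tell a higher level in every cell from a larger share of cells expressing the gene.

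The 3 other phosphatase genes did not pass the test. DUSP6, an ERK-specific phosphatase of the cytoplasm, had 156, 148 and 149 CPM in HSD52_OE libraries, against 134, 138 and 140 CPM in control libraries. Every HSD52_OE library was above every control library, but by a small margin (log2 fold change 0.14, 95% interval -0.02 to 0.31, edgeR quasi-likelihood adjusted p = 0.142). This gene passed under library totals alone (log2 fold change 0.27, adjusted p = 0.0104) and with protein-coding genes alone in the fit (0.20, adjusted p = 0.0395). DUSP4, a nuclear phosphatase of ERK and JNK, had 211, 205 and 203 CPM in HSD52_OE libraries, against 217, 215 and 206 CPM in control libraries. Its groups overlapped and its log2 fold change was -0.04 (95% interval -0.21 to 0.12). DUSP5, an ERK-specific phosphatase of the nucleus, was the gene of lowest level, with 13.9, 19.2 and 11.6 CPM in HSD52_OE libraries, against 13.8, 12.2 and 13.4 CPM in control libraries. HSD52_OE replicate 2 alone stood above the control libraries by a clear margin, and without it the log2 fold change of 0.18 (95% interval -0.15 to 0.52) turned to -0.040.

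**Figure D1:**
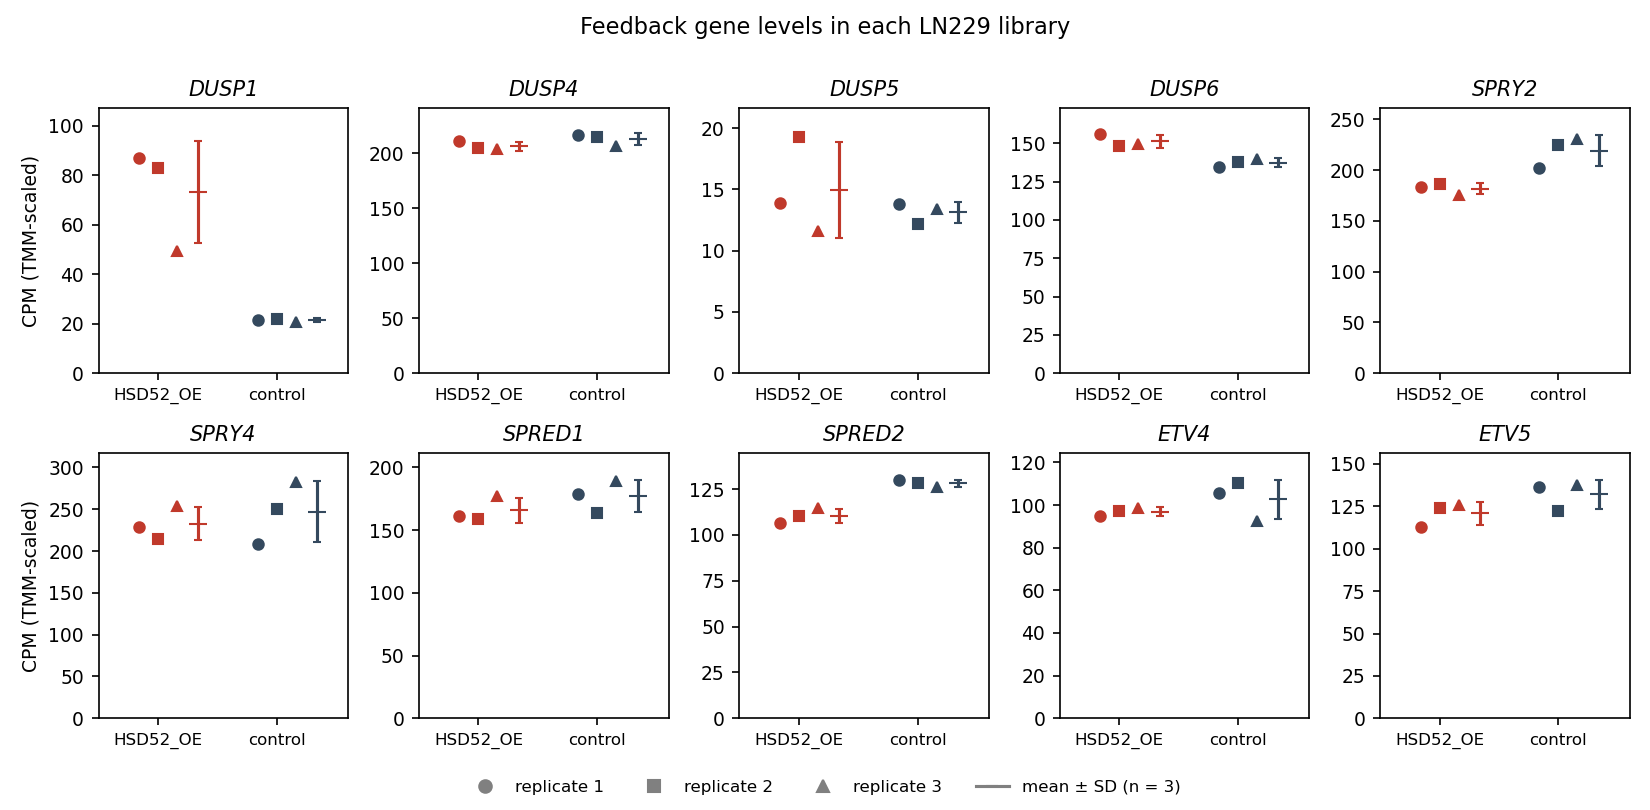
TMM-scaled CPM of each of the 10 feedback genes in every library, HSD52_OE (red) left of control (blue), with replicates 1 to 3 as circle, square and triangle, mean ± SD beside them, and every vertical axis starting at 0. DUSP1 separates widely, at 49.5 to 87.1 CPM in HSD52_OE against 20.6 to 22.1 CPM in control, while the other 9 genes sit close to their control level.

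Among the Sprouty and SPRED genes the differences were small. SPRY2, an inhibitor of receptor tyrosine kinase signalling that binds the ubiquitin ligase CBL, had 183, 186 and 176 CPM in HSD52_OE libraries, against 202, 225 and 231 CPM in control libraries. The groups did not overlap, and SPRY2 was called lower (log2 fold change -0.27 ± 0.08, 95% interval -0.45 to -0.09; edgeR quasi-likelihood Benjamini-Hochberg adjusted p = 0.0139). SPRED2, which brings the RAS GTPase-activating protein neurofibromin to the membrane, had 107, 110 and 114 CPM in HSD52_OE libraries, against 130, 128 and 126 CPM in control libraries. It too was called lower without overlap (log2 fold change -0.21 ± 0.08, 95% interval -0.38 to -0.05; edgeR quasi-likelihood adjusted p = 0.0310). Both calls were narrow. They were lost with library totals in place of TMM, which moved the log2 fold change at the median over all genes to 0.131, against 0.00718 with TMM, and the calls to 5337 higher and 2933 lower genes, against 4086 and 4173 with TMM. These calls then had adjusted p = 0.164 for SPRY2 and 0.352 for SPRED2 (edgeR). They were also lost without HSD52_OE replicate 1 (edgeR adjusted p = 0.0543 and 0.148), replicate 2 (0.0515 and 0.122) or replicate 3 (0.0765 and 0.0624), SPRY2 named first in each pair. The SPRED2 call was further lost with the filter of at least 1 CPM in 3 libraries (edgeR adjusted p = 0.0513) and with protein-coding genes alone (0.0980).

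SPRY4 and SPRED1 did not pass. SPRY4, a Sprouty protein that restrains RAS activation, had 229, 215 and 254 CPM in HSD52_OE libraries, against 209, 251 and 282 CPM in control libraries. Its control libraries spanned the whole HSD52_OE range, and the log2 fold change of -0.09 (95% interval -0.32 to 0.14) was 0.012 without control replicate 3. SPRED1, which like SPRED2 partners neurofibromin, had 161, 159 and 177 CPM in HSD52_OE libraries, against 179, 163 and 189 CPM in control libraries. The groups overlapped (log2 fold change -0.10, 95% interval -0.28 to 0.09).

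Neither ETS factor gene passed the test. ETV4 had 94.98, 97.1 and 98.8 CPM in HSD52_OE libraries, against 106, 110 and 92.3 CPM in control libraries. The HSD52_OE libraries lay inside the control range, with a log2 fold change of -0.08 (95% interval -0.26 to 0.10; edgeR adjusted p = 0.440). ETV5 had 113, 124 and 126 CPM in HSD52_OE libraries, against 137, 122 and 137 CPM in control libraries. Control replicate 2 fell among the HSD52_OE values, and the log2 fold change was -0.13 (95% interval -0.31 to 0.05; edgeR adjusted p = 0.222).

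Taking the 9 genes other than DUSP1 one by one, the 95% intervals ran from a fold of 0.733 (the lower end for SPRY2) to a fold of 1.43 (the upper end for DUSP5). The intervals are per gene and not adjusted for their number. Of these 9 log2 fold changes, 7 were below 0, and DUSP4, SPRY4, SPRED1 and ETV4 changed sign with library totals in place of TMM. DUSP4 also changed sign with protein-coding genes alone, SPRY4 without control replicate 3 and DUSP5 without HSD52_OE replicate 2. Summed over the 9 genes, the libraries held 1281 ± 25.4 CPM in HSD52_OE and 1370 ± 45.6 CPM in control (SD, n = 3 each). With DUSP1 included the sums were 1354 ± 6.90 CPM in HSD52_OE and 1391 ± 45.0 CPM in control. These sums rest on TMM scaling, with factors of 1.04 to 1.05 in HSD52_OE and 0.940 to 0.987 in control libraries. Sums with library totals in place of TMM are not given here, and the difference between groups may depend on that choice.

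Levels of different genes were compared as CPM per kilobase of the gene length given in the deposited table. SPRY2 was the highest of the 10 in both groups, with 57.8 to 61.3 CPM per kb in HSD52_OE libraries and 66.5 to 75.9 CPM per kb in control libraries. DUSP5 was the lowest in both, at 4.45 to 7.36 and 4.66 to 5.27 CPM per kb in HSD52_OE and control libraries. DUSP1 stood at rank 2 in HSD52_OE, with 24.5 to 43.2 CPM per kb, and at rank 9 in control, with 10.2 to 10.9 CPM per kb. At the wide HSD52_OE spread of DUSP1 its range covered those of SPRY4, DUSP6, DUSP4 and ETV4, so its order among these 4 is not resolved. In control libraries the ranges of DUSP6, DUSP4 and ETV4 overlapped one another, as did those of ETV5 and SPRED1, and DUSP1 stood apart from its neighbours SPRED1 and DUSP5.

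Of the 6 other genes for MAPK phosphatases, 3 rose and 2 fell, against 25.0% higher and 25.6% lower of all genes tested. DUSP10, a phosphatase of JNK and p38, rose to 31.6, 33.9 and 26.9 CPM in HSD52_OE libraries, against 12.1, 13.4 and 12.9 CPM in control libraries. Its groups stood far apart, and its log2 fold change was 1.27 ± 0.11 (edgeR quasi-likelihood Benjamini-Hochberg adjusted p = 4.97e-07). DUSP9, an ERK phosphatase of the cytoplasm, was low and rose, with 5.60 ± 0.238 CPM in HSD52_OE and 3.02 ± 0.416 CPM in control. DUSP16, which acts on JNK, rose by a log2 fold change of 0.33 (edgeR adjusted p = 0.0118, and 0.0622 without HSD52_OE replicate 3). DUSP7, another ERK phosphatase, fell to 29.0 ± 1.73 CPM in HSD52_OE, against 42.2 ± 5.98 CPM in control. DUSP8, of JNK and p38, fell by 0.84 on the log2 scale, and DUSP2, a nuclear phosphatase, did not pass (log2 fold change -0.40, edgeR adjusted p = 0.119). No test was made between these 6 phosphatase genes and the 4 described above. Among the other Sprouty, SPRED and PEA3-type genes, SPRY1 fell to 5.61 ± 1.04 CPM in HSD52_OE, against 9.41 ± 0.316 CPM in control (log2 fold change -0.75, edgeR adjusted p = 0.00114), and SPRY3, SPRED3 and ETV1, at log2 fold changes of -0.08, 0.21 and 0.15, did not pass. ETV1 was called higher without control replicate 3 (log2 fold change 0.25, edgeR adjusted p = 0.0437), and SPRED3 with library totals (0.33, adjusted p = 0.0411).

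**Figure D2:**
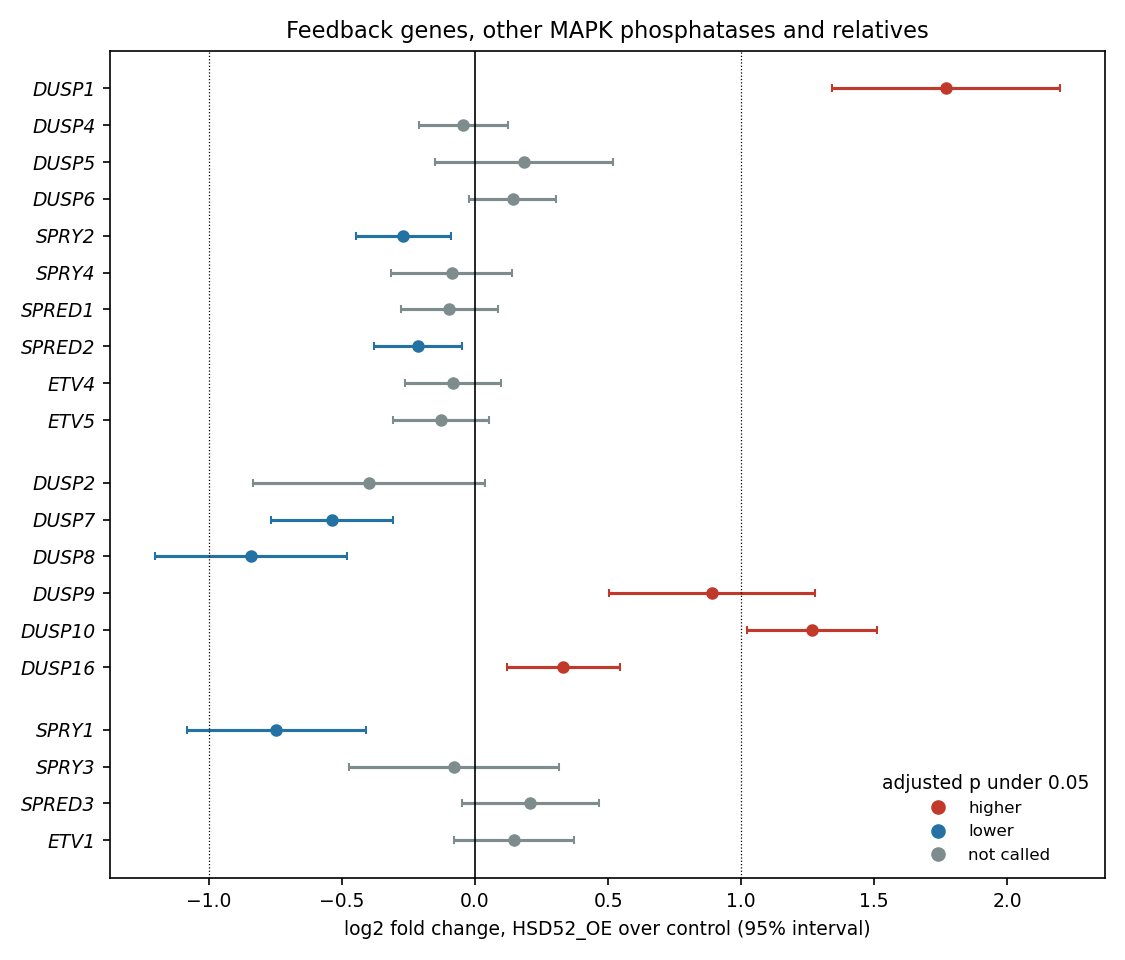
Log2 fold changes, HSD52_OE over control, with 95% intervals, for the 10 feedback genes (top), the 6 other MAPK phosphatase genes (middle) and 4 further Sprouty, SPRED and ETV genes (bottom); red and blue mark genes called higher and lower and dotted lines mark a fold of 2. DUSP1 at 1.77 and DUSP10 at 1.27 are the points beyond the upper dotted line.

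FOS and EGR1, early-response genes that ERK also drives, differed in direction. From the same list, IER3 was called lower (log2 fold change -0.32) and MYC did not pass (-0.18). Values of IER3 and MYC under the alternatives are not given here. FOS, a subunit of AP-1, rose to 582, 579 and 371 CPM in HSD52_OE libraries, against 121, 175 and 134 CPM in control libraries (log2 fold change 1.83 ± 0.20, edgeR adjusted p = 5.89e-05). EGR1, a zinc finger factor chosen here after its values were seen, fell to 691, 656 and 420 CPM in HSD52_OE libraries, against 745, 1068 and 831 CPM in control libraries (log2 fold change -0.58, edgeR adjusted p = 0.0271). The EGR1 call was lost with DESeq2 (adjusted p = 0.0530), with library totals (0.0756), and in edgeR without control replicate 1 (0.0625), 2 (0.0988) or 3 (0.133). HSD52_OE replicate 3 was the lowest of its group in DUSP1, in FOS and in EGR1, and also in DUSP10 and in the nuclear-retained RNA MALAT1, which had 383, 386 and 251 CPM in HSD52_OE libraries, against 50.7, 61.1 and 76.9 CPM in control libraries. The part of such a difference between libraries in the DUSP1 spread was not tested.

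**Figure D3:**
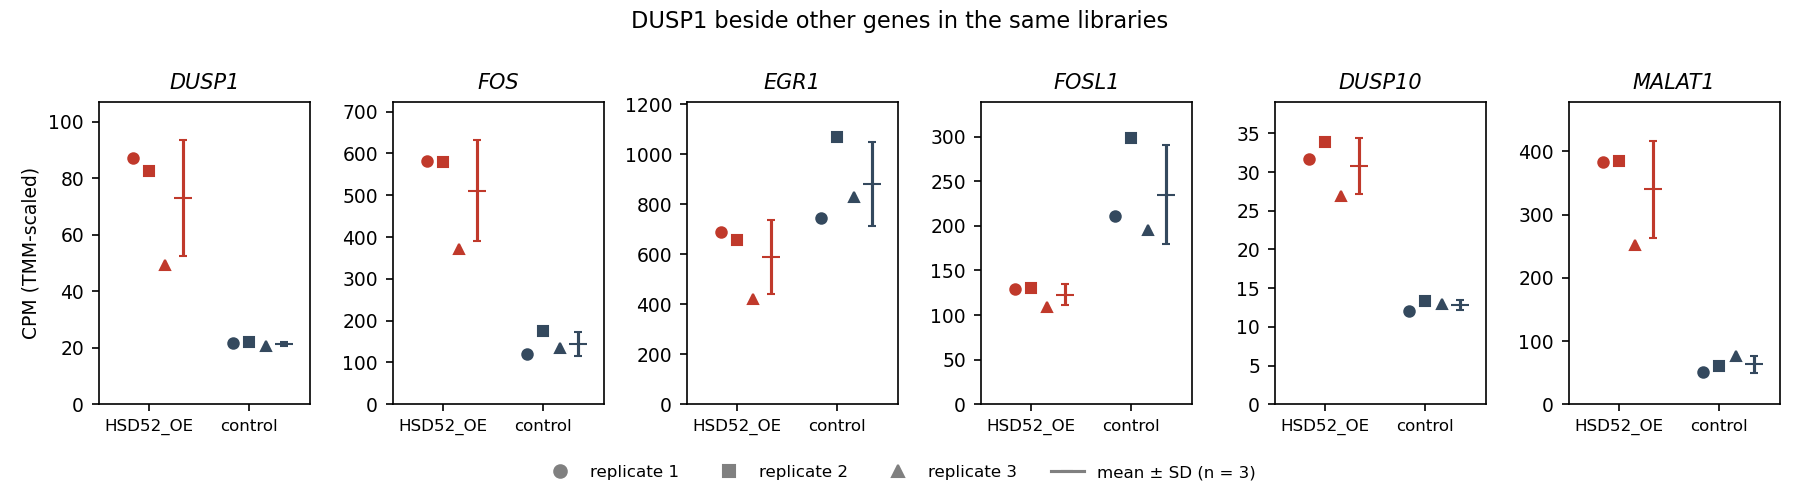
TMM-scaled CPM in every library for DUSP1, the early-response genes FOS, EGR1 and FOSL1, the phosphatase gene DUSP10 and the nuclear-retained RNA MALAT1, drawn as in the plot of the 10 genes by library. HSD52_OE replicate 3 (red triangle) is the lowest HSD52_OE library in all 6 panels, and FOS rises while EGR1 and FOSL1 are lower.

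The list of 14 other ERK output genes held 2 higher and 8 lower genes, at a median log2 fold change of -0.35, where the 10 feedback genes had -0.09 and all genes tested 0.01. Protein-coding genes tested, the class of all genes in these lists, had a median of -0.06, with 21.4% higher and 30.1% lower. SPHK1, a sphingosine kinase, fell to 68.1 ± 3.71 CPM in HSD52_OE, against 123 ± 8.19 CPM in control. EPHA2, an ephrin receptor, fell to 94.4 ± 4.96 CPM in HSD52_OE, against 168 ± 30.2 CPM in control, and FOSL1, another AP-1 subunit, to 123 ± 11.7 CPM in HSD52_OE, against 235 ± 55.8 CPM in control. The edgeR quasi-likelihood adjusted p-values were 1.35e-06, 2.43e-05 and 9.54e-05 for SPHK1, EPHA2 and FOSL1. The lower count was 5 with library totals, and the higher count was 1 without HSD52_OE replicate 1 or 2 or without control replicate 1 or 3.

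Upstream of the feedback genes, receptor genes were mostly lower. Of 12 growth factor receptor genes 1 rose and 10 fell (median log2 fold change -0.62), against 25.0% higher and 25.6% lower of all genes tested. EGFR fell by 1.05, AXL by 1.01, FGFR3 by 0.87 and FGFR1 by 0.77 on the log2 scale, and MET was the receptor gene that rose (0.44). Of 9 ligand genes tested among 11, 2 rose and 4 fell (22.2% and 44.4%). TGFA, an EGFR ligand, was abundant and rose to 1368 ± 70.8 CPM in HSD52_OE, against 949 ± 20.7 CPM in control, while PDGFA, a ligand of PDGF receptors, fell by 1.33 on the log2 scale. HBEGF, a further EGFR ligand, rose by 0.74 and FGF2 fell by 0.51 on that scale.

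Of 10 adaptor, exchange factor and RAS genes 2 rose and 3 fell (20% and 30%), near the 25.0% and 25.6% of all genes tested. The adaptors GRB2 and SHC1 fell by 0.62 and by 0.44, HRAS fell by 0.75 and FRS2, a docking protein of FGF receptors, rose by 0.51 on the log2 scale. Among 10 RAF, MEK and ERK kinase and scaffold genes 6 fell and 0 rose in edgeR, with 0 also in DESeq2 and limma-voom. At an unadjusted p under 0.05 in edgeR 1 was higher, BRAF (log2 fold change 0.28, adjusted p = 0.0600). MAP2K2, a MEK kinase, fell to 108.5 ± 6.45 CPM in HSD52_OE, against 208 ± 14.1 CPM in control, KSR1, a scaffold, fell by 1.07, MAPK3, an ERK kinase, by 0.44 and IQGAP1 by 0.37 on the log2 scale. In this list 1 gene was called higher with library totals, with the filter of at least 1 CPM, with protein-coding genes alone, with the replicate block or without control replicate 3. Of 8 RAS GTPase-activating genes 2 rose and 2 fell (25% and 25%), also near the shares of all genes tested. RASA3 was lower by 0.38 on the log2 scale, whereas the calls of RASA1, RASA2 and RASAL2 were lost without HSD52_OE replicate 1 (edgeR adjusted p = 0.118, 0.0632 and 0.0972), without replicate 2 (0.119, 0.0512 and 0.0818) and without control replicate 1 (0.0556, 0.0742 and 0.129), and that of RASA1 also without control replicate 2 (0.0597) and that of RASAL2 without HSD52_OE replicate 3 (0.188). The RASAL2 call was further lost with library totals (log2 fold change -0.11, edgeR adjusted p = 0.337), with the filter of at least 1 CPM (0.0709), with protein-coding genes alone (0.121) and in DESeq2 (0.0605), and the RASA1 call with no low-count filter (0.115). NF1, the SPRED partner, had a log2 fold change of 0.03 and did not pass.

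Among substrates and partners of the feedback proteins, 10 of 11 JNK and p38 pathway genes were tested, 1 rose and 4 fell, while the median log2 fold change was 0.09. These calls were 10% and 40% of the tested list, against 25.0% higher and 25.6% lower of all genes tested. MAPK14, a p38 kinase and a DUSP1 substrate, fell by 0.70 on the log2 scale. The kinases that activate p38, MAP2K6 and MAP2K3, fell by 0.82 and by 0.51 on that scale. The gene that rose, MAP2K4 (0.30), lost its call without HSD52_OE replicate 1 or 3 or without control replicate 1 or 2 (edgeR adjusted p = 0.0566, 0.126, 0.0522 and 0.0624), and with no low-count filter (0.0572). The list's counts were 4 higher and 3 lower with library totals and 3 higher and 3 lower with protein-coding genes alone. The higher count was 2 with the filter of at least 1 CPM and without control replicate 2 or 3, and 0 with no low-count filter and without HSD52_OE replicate 1 or 3 or control replicate 1. Of 11 ERK effector kinase and ETS factor genes 2 rose and 5 fell (18.2% and 45.5%). The kinase genes RPS6KA2 and MKNK2 moved in opposite directions, by log2 fold changes of 1.27 and -1.07, and the ETS factor gene ETS1 and the kinase gene RPS6KA1 fell by 0.44 and by 0.53. The higher count was 1 in DESeq2, with no low-count filter, without HSD52_OE replicate 1, 2 or 3 and without control replicate 1 or 2. CIC, which encodes Capicua, the repressor of ETV4 and ETV5, had a log2 fold change of -0.24 and did not pass (edgeR adjusted p = 0.0674), but it was called lower without control replicate 3 (-0.36, adjusted p = 0.000868) and with no low-count filter (-0.28, adjusted p = 0.0141). Its partner gene ATXN1L rose by 0.43 and ATXN1 did not pass (-0.12). COP1, a ubiquitin ligase gene for ETV proteins, fell by 0.57 and DET1, its partner, rose by 1.39 from a low level, both on the log2 scale.

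**Figure D4:**
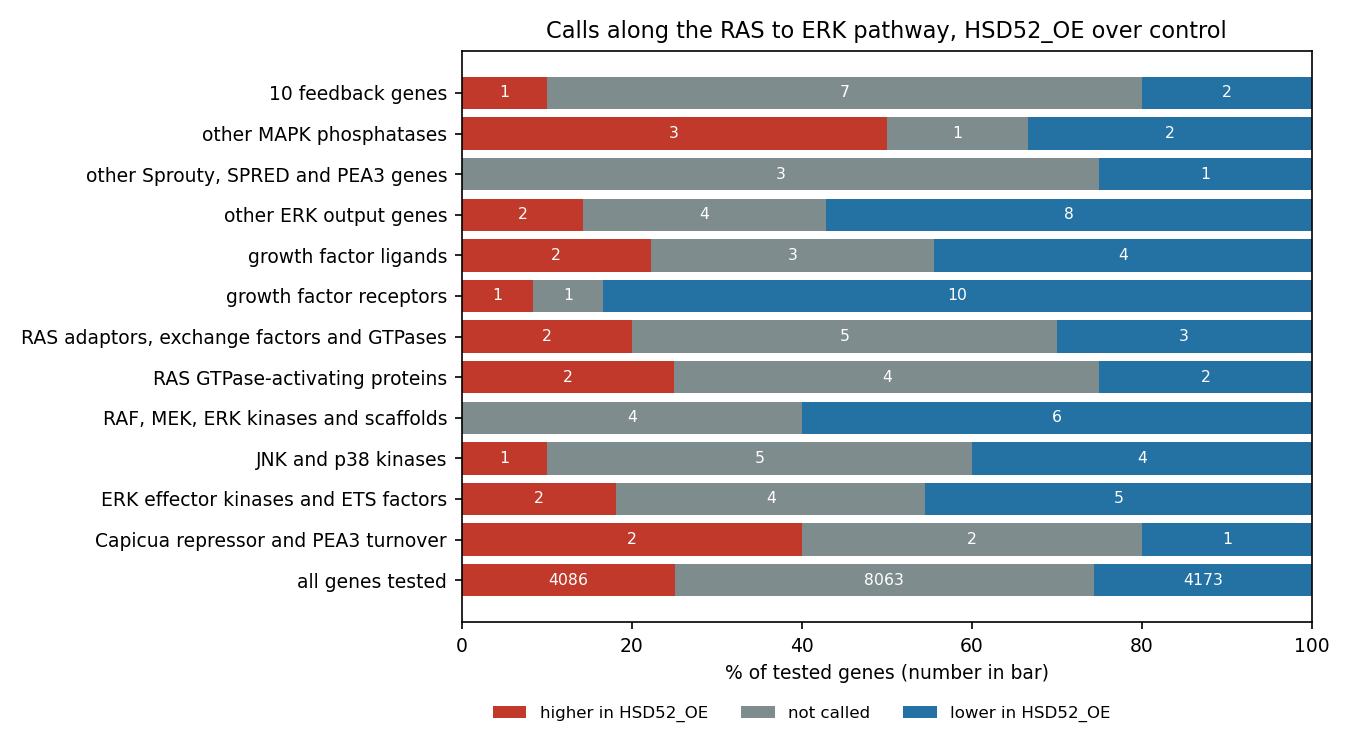
Share of tested genes called higher (red), not called (grey) and lower (blue) in HSD52_OE at an adjusted p under 0.05, by list, with the number of genes in each bar segment and all genes tested in the bottom bar. The 10 feedback genes have 7 genes not called, and the receptor list has 10 of 12 lower.

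The genes lie on 9 chromosomes, with DUSP1 and SPRY4 both on chromosome 5, and coordinates are those of the deposited table (hg38). Tested genes whose start lay within 1 Mb of DUSP1 (15 genes) had a median log2 fold change of -0.07, with 3 higher and 5 lower. Near DUSP6, 5 of 7 neighbours were higher (median 0.88), near SPRED1 4 of 6 were higher (median 1.11), and near SPRED2 5 of 9 were lower (median -0.35). The medians around the other 6 genes were between -0.11 and 0.17. Neighbours include tested genes that overlap the gene itself, among them AC024909.2, which lies within DUSP6. Of all genes tested 25.0% were higher and 25.6% lower. Several genes overlap others in the table, and with no strand setting given in the sources used here their reads cannot be told apart. AC024909.2, antisense to DUSP6 (chromosome 12, 89351015 to 89353271, plus strand), had 3.98, 3.95 and 4.32 CPM in HSD52_OE libraries, against 1.11, 0.683 and 0.666 CPM in control libraries (log2 fold change 2.31, edgeR adjusted p = 4.27e-06). RF02038 and RF02039, within SPRY4, were called higher at log2 fold changes of 2.06 and 1.55 on few counts, and lost the call without HSD52_OE replicate 3 (RF02038, edgeR adjusted p = 0.0611), without HSD52_OE replicate 2 (RF02039, 0.121) or without control replicate 1 (RF02039, 0.0855). ETV4 overlaps DHX8 on the opposite strand (log2 fold change -0.07, not passed), and ETV5 overlaps DGKG on its own strand (0.67, higher). SPRY4-AS1 had a log2 fold change of 0.39 and did not pass, and AC022217.3 (antisense to DUSP1), AC012370.1, ETV5-AS1 and RF00017 were too low to be tested.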

How the data were processed

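Poly-A RNA of 6 LN229 libraries (3 HSD52_OE, 3 control) was sequenced on an Illumina NovaSeq instrument, per the labels' protocols. The authors deposited raw read counts per gene, with gene symbols, hg38 coordinates and gene lengths. The submitters' processing notes name CASAVA, HISAT2 2.0.5 and featureCounts 1.5.0-p3. For annotation release, read filters and strand setting the entry is: not given in the sources used here. Replicates were not pooled.

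Genes were filtered with filterByExpr (16322 of 58735 kept), scaled by TMM and tested over all genes at once with edgeR 4.0.16 (robust quasi-likelihood test, 2-sided, group alone; R 4.3.3, limma 3.58.1), with p-values adjusted over every tested gene by the Benjamini-Hochberg method and called under 0.05. Fold changes are HSD52_OE over control, ± the standard error, and CPM is given per library or as mean ± SD (n = 3). "Passed", "rose", "fell" and "called" refer to that threshold. CPM for genes of different length is divided by the deposited length. Library totals were 17777157 to 18917790 counts. On simulated data of 16017 genes, 67, 67 and 66 were changed by folds of 1.5, 2 and 4. The fit found 80.6%, 97% and 100% of them, and 7.04% of its calls were false. The simulation drew its changed genes only from those above a minimum mean CPM. The shares found therefore do not cover genes of low level such as DET1. Far fewer genes were changed there than were called in these data, so the simulation does not cover that setting.

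The 10 genes and the pathway lists were chosen with earlier results of these data known. Named were the 10 genes, HSD52, genes overlapping them, and in each list the 4 tested genes with the smallest p (all genes in lists of 6 or fewer). EGR1, MALAT1, MET, BRAF and NF1 were named after their values were seen, as were GFAP, AQP4, HBB, SNAP25, IER3 and MYC. Lists are described by counts and medians, without a set test. Promoter windows came from RefSeq (GRCh38.p14). Alternatives were RLE size factors, library totals, DESeq2 1.42.0, a replicate block, limma-voom, protein-coding genes alone, no low-count filter, a minimum of 1 CPM in 3 libraries and leaving out each library.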

Additional observations from a re-analysis of the deposited data

How the results depend on the processing

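Under the alternatives planned, DUSP1 kept its direction and its call in all 14 settings, and leaving out each library gave log2 fold changes of 1.62 to 1.98. The number of the 10 genes called higher, 1, became 2 with library totals and 2 with protein-coding genes alone. The number called lower, 2, became 0 with library totals, 1 with the filter of at least 1 CPM in 3 libraries, 1 with protein-coding genes alone, and 0 to 2 with each library left out. Library totals moved the split of all genes to 5337 higher and 2933 lower, against 4086 higher and 4173 lower with TMM, and gave log2 fold changes of 0.27 for DUSP6 (passed), -0.15 for SPRY2 and -0.089 for SPRED2 (call lost), and turned DUSP4 to 0.082, SPRY4 to 0.033, SPRED1 to 0.027, ETV4 to 0.044, SPRY3 to 0.045, ATXN1 to 0.0020 and DHX8 to 0.055, none of which passed in either fit. Protein-coding genes alone gave 0.20 for DUSP6 (passed), 0.015 for DUSP4 (sign turned) and -0.16 for SPRED2 (call lost), and the filter of at least 1 CPM gave -0.19 for SPRED2 (call lost). With each library left out, SPRY2 ran from -0.34 to -0.24, SPRED2 from -0.24 to -0.19, DUSP5 from -0.040 to 0.33, SPRY4 from -0.21 to 0.012 and SPRY3 up to 0.083. Library totals remove the composition scaling. The cause of the other changes was not tested. The replicate numbers are not said to pair libraries, and deviations of same-numbered libraries correlated at 0.0383, 0.0307 and 0.0328. The fit with the replicate block gave 4210 higher and 4226 lower genes, with 1 of the 10 genes higher and 2 lower. The block also called CIC lower (-0.23, adjusted p = 0.0430 in edgeR) and changed no call among the 10 genes.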
